A study of Mus musculus with 11 samples.

Results

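The genes described here are 9 transcripts of iron handling and metal binding in mouse liver: the hepcidins Hamp and Hamp2, the metallothioneins Mt1 and Mt2, the transferrin receptor Tfrc, the ferrireductase Steap4, and the plasma proteins Trf (transferrin), Cp (ceruloplasmin) and Hpx (hemopexin). They were chosen by name, as every probe that carries one of these symbols, provided it was detected (detection p under 0.05) on at least 2 arrays. All 9 genes met this, with 16 of the 45281 probes, and they are 9 of the 15469 genes tested. Of the 16 probes, 15 were detected on every array.

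The livers came from male C57BL/6J mice of 8 weeks, per the labels, infected with an adenovirus that carried FXR (Nr1h4), the nuclear receptor activated by bile acids. The 4 groups were obese mice given FXR-K217R (3 arrays), obese mice given FXR-WT (3 arrays), lean mice given FXR-K217Q (3 arrays) and lean mice given FXR-WT (2 arrays). The array titles carry HFD for the obese and ND for the lean groups, which the labels do not spell out. In K217R an arginine that cannot be acetylated takes the place of a lysine, and in K217Q a glutamine that resembles acetylated lysine does. All mice, FXR-WT groups included, received the FXR agonist GW4064 at 30 mg/kg in corn oil overnight, 1 week after infection. No group without virus or without GW4064 is described, no loss of the mice's own FXR gene is labelled, and each mutant was used in 1 body state only, so construct and body state cannot be told apart when the mutants are set against each other. Whether replicates came from separate animals is not stated, so the p-values cover the spread among these samples and no more.

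Hepcidin, the peptide made from Hamp, is the liver's iron hormone: it binds the iron exporter ferroportin and so holds iron in cells and out of plasma. Hepatocytes make it in response to iron, through BMP and SMAD signalling, and to inflammation, through IL-6 and STAT3. Iron travels in plasma on transferrin, enters cells through the transferrin receptor, and is oxidised and reduced on the way by ceruloplasmin and the STEAP enzymes. Hemopexin carries free heme. Metallothioneins are small cysteine-rich proteins that bind zinc and copper, and their genes respond to metals, glucocorticoids and inflammation.

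The arrays detected between 18263 and 19500 probes each, at a mean of 41.9 to 44.0 beads per probe. All 12 hepatocyte markers listed were measured. The arrays of lean FXR-K217Q replicate 3 and obese FXR-WT replicate 1 stood apart: their highest correlation with any other array was 0.988 and 0.987, against 0.991 to 0.992 for the other 9 arrays. The best match of lean FXR-K217Q replicate 3 was lean FXR-WT replicate 2. Values below are normalized log2 intensities, changes are the mean of the first-named group minus that of the other, and a gene was called when its limma p, Benjamini-Hochberg adjusted over all 15469 genes, was under 0.05. The comparison of obese with lean FXR-WT livers shares its samples with both mutant comparisons. In bulk liver, fewer cells of a type and less RNA per cell cannot be told apart.

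The 2 hepcidin genes are near copies of each other on chromosome 7, with 1 annotated gene, Usf2-ps1, between them. The 250 bases upstream of their starts are printed because their array patterns differed while these windows are almost the same. They are RefSeq sequences of assembly GRCm38.p6, both on the minus strand, at chr7:30944030-30944279 for Hamp and chr7:30924182-30924431 for Hamp2. Capitals mark, from left to right, the 6 bases at the BMP response element known from the human HAMP promoter, a STAT-type match and an AP-1 match.
Hamp: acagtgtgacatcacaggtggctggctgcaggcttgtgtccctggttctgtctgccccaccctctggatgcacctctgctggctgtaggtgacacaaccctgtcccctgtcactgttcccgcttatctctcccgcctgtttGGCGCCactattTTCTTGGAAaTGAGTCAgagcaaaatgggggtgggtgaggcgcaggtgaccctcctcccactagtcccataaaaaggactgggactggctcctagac
Hamp2: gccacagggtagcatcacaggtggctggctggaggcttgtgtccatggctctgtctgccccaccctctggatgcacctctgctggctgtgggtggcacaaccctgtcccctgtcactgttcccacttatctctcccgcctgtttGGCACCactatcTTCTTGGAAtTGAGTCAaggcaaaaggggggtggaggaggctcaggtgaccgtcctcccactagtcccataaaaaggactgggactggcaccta
Aligned end to end, 227 of 253 columns were identical (89.7%), with 20 mismatches and 6 gap columns. The BMP element GGCGCC begins 109 bases before the start of Hamp. At the aligned place, 106 bases before the start of Hamp2, the window reads GGCACC, a G4A substitution counted from 1 at the 5′ end of the 6-base site. Both windows hold TTCTTGGAA, which matches the STAT pattern TTCNNNGAA, and TGAGTCA, which matches the AP-1 pattern TGACTCA on the other strand. Searched on both strands, GGCGCC lies in 9.59% of all 32851 RefSeq windows of this length, TTCNNNGAA in 7.02% and TGACTCA in 4.46%. A match describes letters, not binding.

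Each hepcidin gene was read by 1 probe, and whether these probes tell the near copies apart was not tested. Hamp was the steadier hepcidin by these readings. It stood at 14.41, 14.51 and 14.58 in obese FXR-K217R livers, at 14.42, 14.47 and 14.38 in obese FXR-WT livers, at 14.21, 14.40 and 14.51 in lean FXR-K217Q livers and at 14.01 and 14.27 in lean FXR-WT livers. Both lean FXR-WT arrays lay below every obese array, while groups next to each other in the order of their means overlapped. The whole range over 11 arrays was 0.57, or 1.48-fold. Its pooled SD within groups was 0.12, at the 14.3 percentile of all genes tested. Hamp was also the brighter hepcidin, at a mean bead intensity of 21474 against 2213 for Hamp2. Whether the scale is compressed at that level was not tested. Hamp averaged 14.42 ± 0.05 (SD, n = 3) in obese FXR-WT livers and 14.14 ± 0.18 (SD, n = 2) in lean FXR-WT livers, a change of 0.28 (SE 0.13, 95% interval -0.01 to 0.58) that did not pass (adjusted p = 0.399). The change was 0.08 (SE 0.12, adjusted p = 0.993) for FXR-K217R against FXR-WT in obese livers and 0.23 (SE 0.13, adjusted p = 0.767) for FXR-K217Q against FXR-WT in lean livers.

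Hamp2 gave the widest spread of the 9 genes. It read 10.44, 10.76 and 12.16 in obese FXR-K217R livers, 7.67, 10.42 and 11.41 in obese FXR-WT livers, 12.05, 11.95 and 7.24 in lean FXR-K217Q livers and 10.34 and 10.31 in lean FXR-WT livers. A single array was low in each of the obese FXR-WT and lean FXR-K217Q groups, and these are the arrays that stood apart. In each of the 3 comparisons the groups overlapped. Over 11 arrays Hamp2 spanned 4.93 log2 units, or 30.5-fold, and mean bead intensities from 260 to 4472. The pooled SD within groups was 1.87, against a median of 0.21 over all genes, and the probe was detected on all 11 arrays. Its bead-level standard error was 3.6% of the intensity at the median, against that 30.5-fold range between arrays.

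The replicate spread left the Hamp2 comparisons wide. FXR-K217R against FXR-WT in obese livers gave 1.29 (SE 1.24, 95% interval -1.47 to 4.04, adjusted p = 0.993), from means of 11.12 ± 0.92 in FXR-K217R and 9.83 ± 1.94 in FXR-WT livers (SD, n = 3 each). FXR-K217Q against FXR-WT in lean livers gave 0.09 (SE 1.39, adjusted p = 0.995), and obese against lean FXR-WT livers gave -0.49 (SE 1.39, adjusted p = 0.921). Without lean FXR-K217Q replicate 3 the lean change was 1.68 (adjusted p = 0.55). Without obese FXR-WT replicate 1 the changes were 0.20 for FXR-K217R and 0.59 for obesity, and the obesity sign turned. Hamp and Hamp2 did not move together over the 11 arrays (r = -0.12, and -0.36 after group means were removed).

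**Figure D1:**
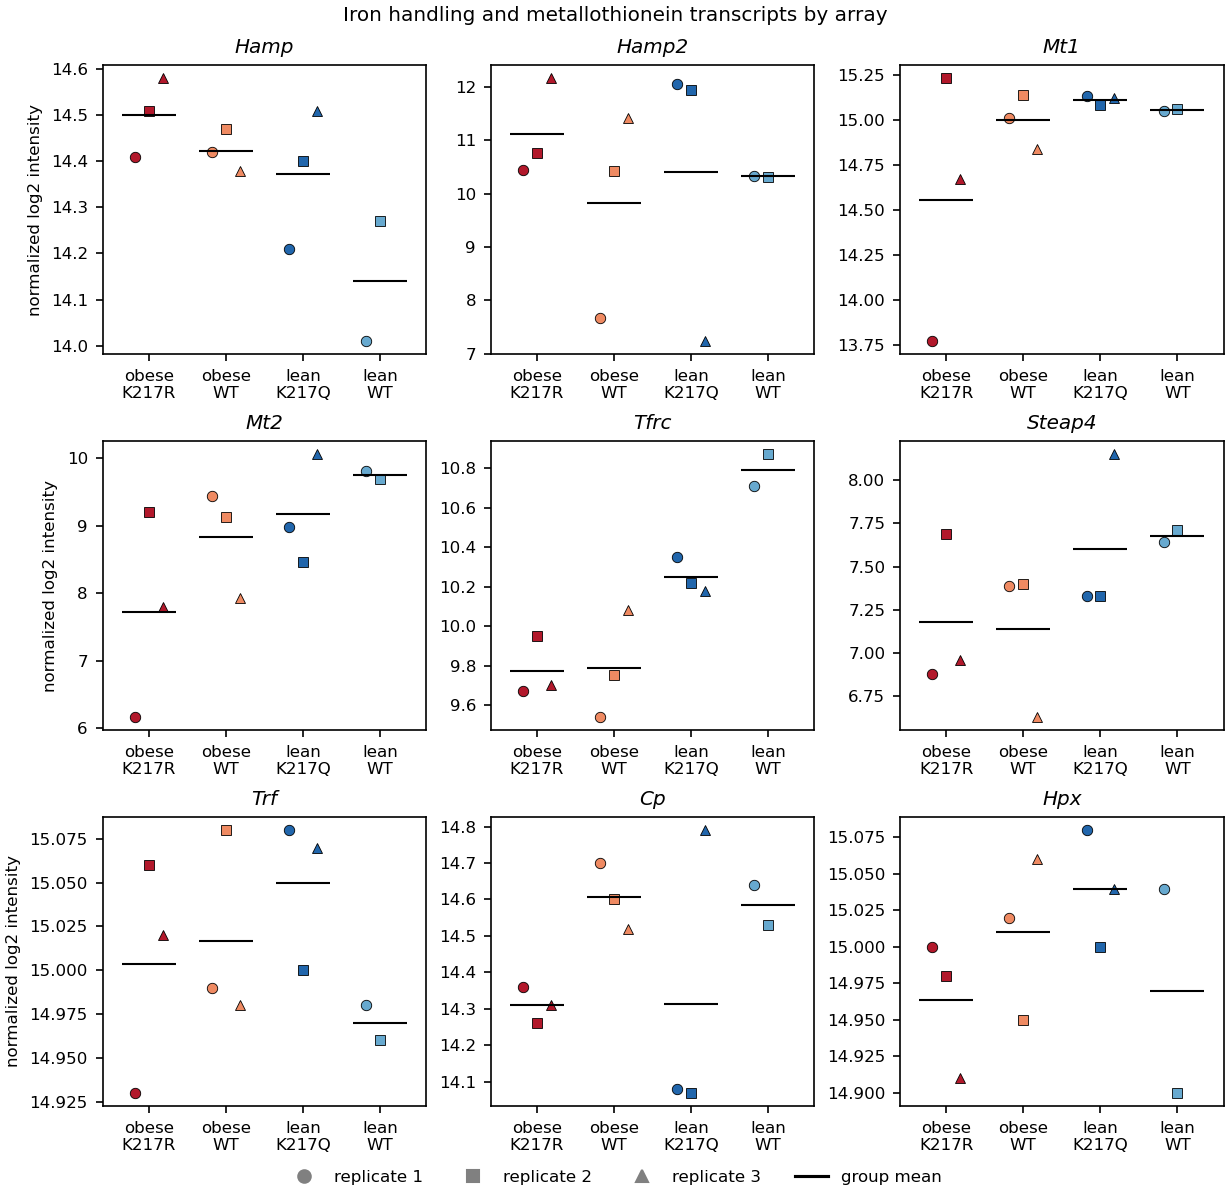
Normalized log2 intensity (y axes, each with its own range) of the 9 genes on each of 11 arrays, by group, with the brightest probe of each gene; marker shape gives the replicate number and lines are group means. Hamp2 spans 4.93 log2 units with a low array in each of 2 groups, Trf and Hpx span under 0.2, and Tfrc lies highest on both lean WT arrays.

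The genes most like Hamp2 over the 11 arrays, among 8616 genes detected on all of them, were Afmid (r = 0.97), which acts in tryptophan breakdown, Car3 (r = 0.97), a carbonic anhydrase, and Gamt (r = 0.96), which makes creatine. After group means were removed these values were 0.98, 0.98 and 0.99. Car3 was at 10.09 on lean FXR-K217Q replicate 3 and 10.35 on obese FXR-WT replicate 1, and between 12.35 and 13.97 on the other 9 arrays. The points share arrays and normalization, so these values describe likeness only. Those most like Hamp were Ube2b (r = 0.91), Lyrm5 (r = 0.89) and Stard5 (r = 0.88).

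The low Hamp2 arrays also had the lowest Dbp, a transcription factor gene driven by the circadian clock with a strong daily rhythm in liver. Dbp was at 10.45 on lean FXR-K217Q replicate 3, 10.74 on obese FXR-WT replicate 1, and 11.32 and 11.71 on the lean FXR-WT arrays, and it lay between 12.67 and 13.27 on the other 7 arrays. Arntl, a core clock gene whose rhythm opposes that of Dbp, ran the other way, from 8.09 on lean FXR-K217Q replicate 3 to 5.74 on obese FXR-K217R replicate 3. Hamp2 lay between 7.24 and 10.34 on the 4 arrays with low Dbp and between 10.42 and 12.16 on the other 7, so the ranges did not overlap. Mt2 went the opposite way without overlap, at 9.44 to 10.06 on the 4 low-Dbp arrays and 6.17 to 9.20 on the other 7. Hamp ranges overlapped, at 14.01 to 14.51 and 14.21 to 14.58, and so did those of Mt1, Tfrc, Steap4, Trf, Cp and Hpx. The share of all genes whose ranges part at this split was not computed, so the separation cannot be called particular to Hamp2 or Mt2. Since both lean FXR-WT arrays fall among the 4, Dbp moved with group, and its part in any result was not tested. Dbp and the cut between its low and high arrays were picked with the values in view, and the labels give no time of collection.

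Because the arrays form 2 Dbp clusters, correlations were taken only within the 7 high-Dbp arrays, for 9 genes. These are 3 obese FXR-K217R, 2 obese FXR-WT and 2 lean FXR-K217Q arrays, and the permutation exchanges them across groups, so differences between groups are part of each value. Hamp2 gave Pearson r = 0.42 (exact permutation p = 0.351, two-sided) and Spearman rho = 0.54 (exact p = 0.236). Mt2 gave r = -0.71 (exact p = 0.0675, adjusted over 9 genes 0.407) and rho = -0.89 (exact p = 0.0123, adjusted 0.0554). Mt1 gave r = -0.67 (exact p = 0.0905, adjusted 0.407) and rho = -0.89 (exact p = 0.0123, adjusted 0.0554). Steap4 gave r = -0.61 (exact p = 0.142, adjusted 0.426) and rho = -0.79 (exact p = 0.048, adjusted 0.144). Without the 2 arrays farthest from the median of Dbp, r was 0.92 for Hamp2, -0.70 for Mt2 and -0.62 for Mt1 over 5 arrays. It was then 0.89 for Tfrc (-0.37 over 7 arrays), 0.89 for Hpx (-0.25) and -0.77 for Hamp (0.26). For Steap4, Trf and Cp it was -0.62, -0.51 and -0.49. A high r over these 5 arrays was thus not particular to Hamp2. None of the 9 genes passed the adjustment.

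**Figure D2:**
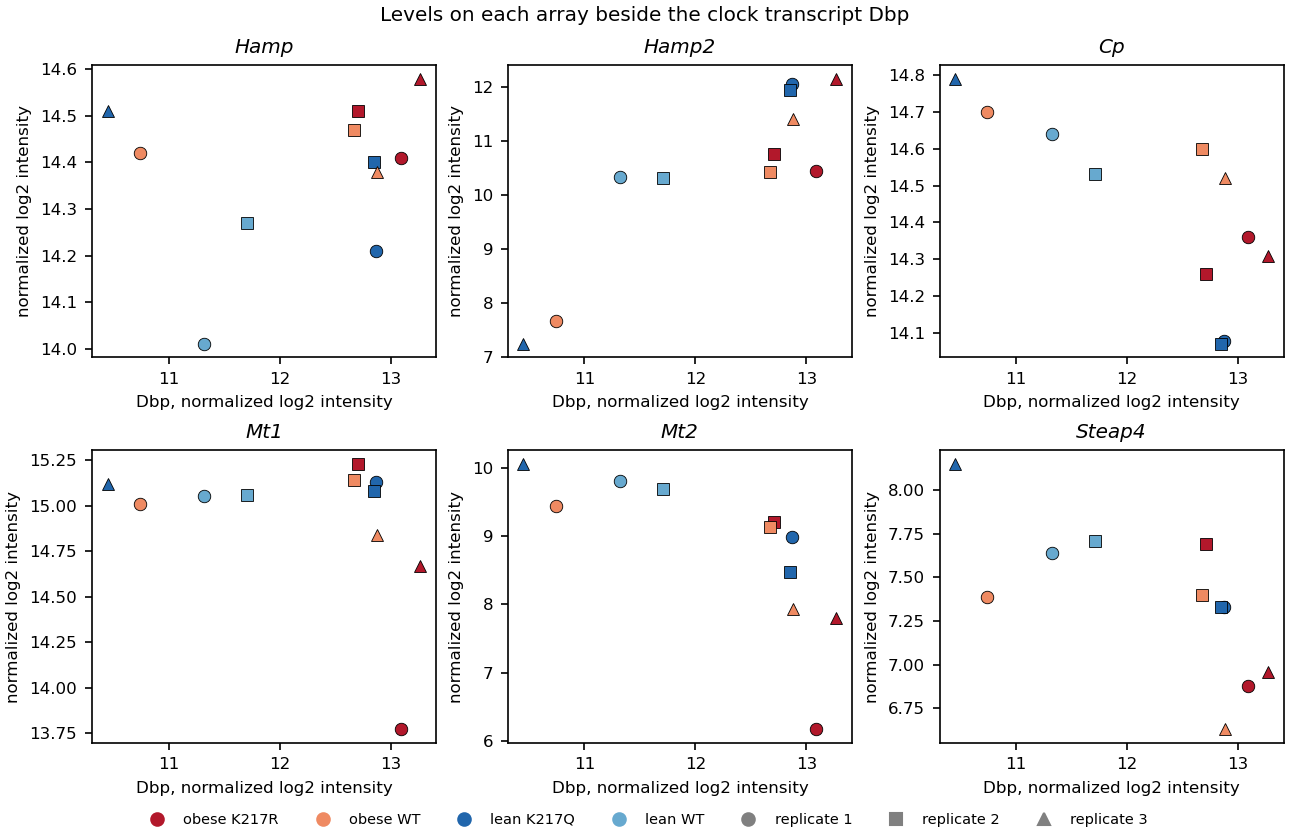
Normalized log2 intensity of 6 genes (y axes) against that of the clock transcript Dbp (x axes) on 11 arrays, coloured by group with marker shape for the replicate. On the 4 arrays with Dbp at 10.45 to 11.71, Hamp2 is at most 10.34 and Mt2 at least 9.44, and neither range meets that of the other 7 arrays. The share of all genes that part in this way was not computed.

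Mt1 and Mt2, the metallothioneins of liver, are neighbours on chromosome 8 with no annotated gene between them. Their upstream windows are printed with the metal-response core in capitals, searched as TGCACNC or TGCGCNC on both strands. They are on the plus strand of GRCm38.p6 (RefSeq), at chr8:94178839-94179088 for Mt1 and chr8:94172368-94172617 for Mt2.
Mt1: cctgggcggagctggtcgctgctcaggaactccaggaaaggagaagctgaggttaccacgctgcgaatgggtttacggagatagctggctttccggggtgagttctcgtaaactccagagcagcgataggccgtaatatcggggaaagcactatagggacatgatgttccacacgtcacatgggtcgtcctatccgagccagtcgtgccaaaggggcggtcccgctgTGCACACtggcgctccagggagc
Mt2: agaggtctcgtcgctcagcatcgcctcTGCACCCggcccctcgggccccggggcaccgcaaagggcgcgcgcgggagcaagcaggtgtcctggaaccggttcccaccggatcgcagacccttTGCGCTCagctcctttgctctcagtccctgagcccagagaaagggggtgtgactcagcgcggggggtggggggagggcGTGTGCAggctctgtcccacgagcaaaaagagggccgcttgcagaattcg
Within these windows the core matched 1 time for Mt1, as TGCACAC. It matched 3 times for Mt2, as TGCACCC, as TGCGCTC and on the other strand as GTGTGCA. Bases outside the windows, those past each annotated start included, were not searched, so the counts do not cover either whole promoter. This short core lies in 21.4% of all windows. The 2 windows were 46.3% identical when aligned, against 89.7% for the hepcidin pair.

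The lowest metallothionein values lay on obese arrays. Mt1 read 13.77, 15.23 and 14.67 in obese FXR-K217R livers, 15.01, 15.14 and 14.84 in obese FXR-WT livers, 15.13, 15.08 and 15.12 in lean FXR-K217Q livers and 15.05 and 15.06 in lean FXR-WT livers. All 5 lean arrays lay between 15.05 and 15.13, and the 6 obese arrays between 13.77 and 15.23. The Mt1 probe had bead intensities of 29884 to 37535 on 9 arrays, where the brightest probe of an array was at 36150 to 43441. On obese FXR-K217R replicates 1 and 3 it was at 15486 and 24157, well below the brightest probe there (42693 and 39510). Whether the scale is compressed at the bright end was not tested.

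Mt2 was dimmer and more variable. It stood at 6.17, 9.20 and 7.80 in obese FXR-K217R livers, at 9.44, 9.13 and 7.93 in obese FXR-WT livers, at 8.99, 8.47 and 10.06 in lean FXR-K217Q livers and at 9.81 and 9.69 in lean FXR-WT livers. Each obese FXR-WT array lay below both lean FXR-WT arrays, and in both mutant comparisons the groups overlapped. The range was 3.89, or 14.8-fold, and the pooled SD within groups was 1.01, at the 99.8 percentile of all genes. Mt1 and Mt2 followed each other over the arrays (r = 0.88, and 0.86 after group means were removed), and Mt2 is among the 3 genes most like Mt1. Both were lowest on obese FXR-K217R replicate 1.

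No metallothionein comparison passed. For FXR-K217R against FXR-WT in obese livers the change was -0.44 (SE 0.28) for Mt1 and -1.11 (SE 0.68, 95% interval -2.61 to 0.40) for Mt2, each with an adjusted p of 0.993. Without obese FXR-K217R replicate 1 these were -0.05 and -0.33. Obese against lean FXR-WT livers gave -0.06 (SE 0.32) for Mt1 and -0.92 (SE 0.76, adjusted p = 0.657) for Mt2. In lean livers FXR-K217Q against FXR-WT gave 0.06 (SE 0.32) for Mt1 and -0.58 (SE 0.76, adjusted p = 0.926) for Mt2, with 1 of 3 FXR-K217Q arrays above both FXR-WT arrays.

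The genes most like Mt2 were Hrg (r = 0.95), a plasma glycoprotein that binds heme and metal ions, Aldh16a1 (r = 0.94) and Nnmt (r = 0.94), which methylates nicotinamide. Nnmt was at 10.89 on obese FXR-K217R replicate 1, the array where Mt2 was lowest, and between 12.37 and 14.37 on the other 10. Steap4 also followed Mt2 (r = 0.83, and 0.87 after group means were removed).

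Tfrc, the receptor through which cells take up iron-loaded transferrin, was the 1 gene of the 9 that passed a test. Its brighter probe read 9.67, 9.95 and 9.70 in obese FXR-K217R livers, 9.54, 9.75 and 10.08 in obese FXR-WT livers, 10.35, 10.22 and 10.18 in lean FXR-K217Q livers and 10.71 and 10.87 in lean FXR-WT livers. Every obese array was below every lean array, and every lean FXR-K217Q array was below both lean FXR-WT arrays. The obese groups overlapped each other.

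Tfrc fell to 9.79 ± 0.27 (SD, n = 3) in obese FXR-WT livers, against 10.79 ± 0.12 (SD, n = 2) in lean FXR-WT livers. The change was -1.0 (SE 0.17, 95% interval -1.37 to -0.63), 2-fold lower, with a limma adjusted p of 0.0219. In this comparison 1.2% of all genes were called, and 0.511% were called lower, against 1 of 9 here. The dimmer Tfrc probe, tested among all probes, gave the same direction at -1.06 (SE 0.15, adjusted p = 0.0074). It read 9.53, 9.48 and 9.86 in obese FXR-WT livers and 10.68 and 10.69 in lean FXR-WT livers. The call was lost when single arrays were left out: leaving out lean FXR-WT replicate 1 gave an adjusted p of 0.094 (change -1.08), leaving out replicate 2 of that group gave 0.277 (-0.92), and leaving out obese FXR-WT replicate 2 gave 0.0804 (-0.98). It held without both arrays that stood apart, at -0.87 (adjusted p = 0.0311).

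In lean livers Tfrc was also lower with FXR-K217Q than with FXR-WT on every array of both probes, but the difference did not pass. The change was -0.54 (SE 0.17, 95% interval -0.91 to -0.17, unadjusted p = 0.00874, adjusted p = 0.494) on the brighter probe, from means of 10.25 ± 0.09 (SD, n = 3) in FXR-K217Q and 10.79 ± 0.12 (SD, n = 2) in FXR-WT livers. It was -0.60 (SE 0.15, adjusted p = 0.382) on the dimmer probe. In obese livers FXR-K217R and FXR-WT differed by -0.02 (SE 0.15, 95% interval -0.35 to 0.32, adjusted p = 0.999). Subtracting the FXR-K217Q change from the FXR-K217R one left 0.52 (SE 0.22, unadjusted p = 0.0414, adjusted p = 1), so a difference between the mutant comparisons was not established.

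**Figure D3:**
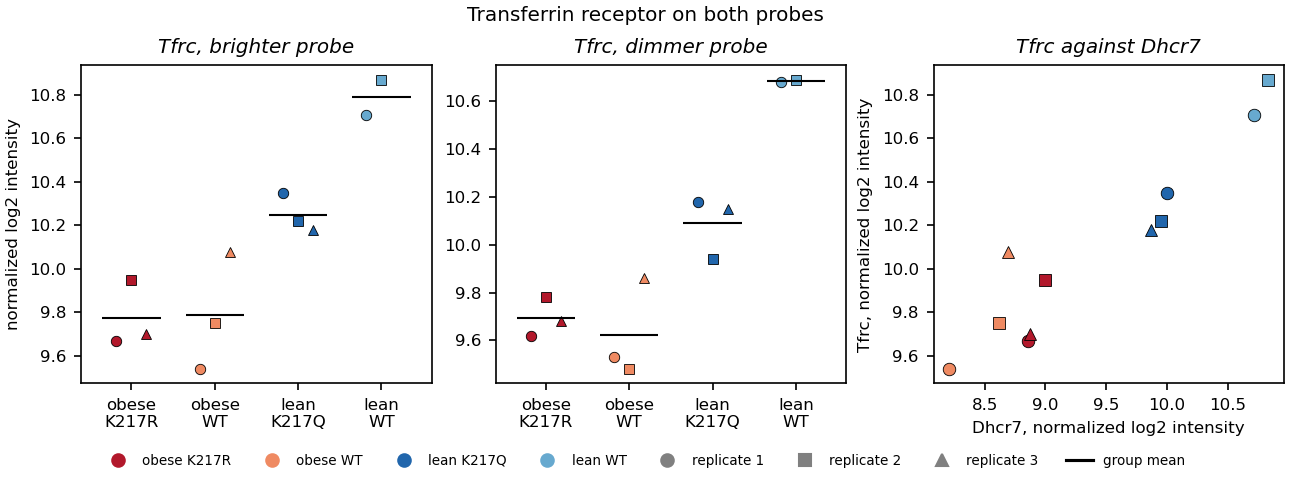
Tfrc on its 2 probes by group (left and middle; y axes normalized log2 intensity, lines are group means) and Tfrc against Dhcr7 on the same 11 arrays (right; both axes normalized log2 intensity). On the brighter probe the 6 obese arrays lie at 9.54 to 10.08, the lean K217Q arrays at 10.18 to 10.35 and the lean WT arrays at 10.71 and 10.87.

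The genes most like Tfrc were Aldoc (r = 0.95), an aldolase of glycolysis, Dhcr7 (r = 0.95), which makes the last step of cholesterol synthesis, and Mmab (r = 0.94), of cobalamin metabolism. After group means were removed r was 0.93, 0.87 and 0.50, so for Mmab much of the likeness lay between groups. Dhcr7 read 8.21, 8.62 and 8.69 in obese FXR-WT livers and 10.72 and 10.83 in lean FXR-WT livers, and 9.87 to 10.00 in lean FXR-K217Q livers. In the plot of Tfrc against Dhcr7 the lean FXR-WT arrays are highest on both axes, the lean FXR-K217Q arrays come next, and the obese arrays are lowest.

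Tfrc is abundant in red cell precursors, so the markers of those cells are given beside it. Of 20 erythroid markers 12 were measured. Their summed normalized intensity was 47228 to 52682 in obese FXR-K217R livers and 35406 to 64450 in obese FXR-WT livers. It was 63842 to 71099 in lean FXR-K217Q livers and 69840 to 71753 in lean FXR-WT livers. A sum weighs the brightest markers most. The mean log2 value of the 12 was 7.95 to 8.33, 7.84 to 8.32, 7.89 to 8.6 and 8.53 to 8.55 in the same order. By that mean the lean FXR-K217Q range overlapped both obese ranges. Between obese and lean FXR-WT livers 11 of 12 changes were negative, with a median of -0.32, and 0 were called by limma (smallest adjusted p = 0.165). An unadjusted p under 0.05 was reached by 5 of the 12, against 13.5% of all genes in this comparison. Rhag, a red cell membrane protein, was not detected on any obese FXR-WT or lean FXR-K217Q array. The part of these cells in the Tfrc result was not tested.

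Steap4, a membrane enzyme that reduces iron and copper and is linked to fat and inflammation, passed in no comparison. It read 6.88, 7.69 and 6.96 in obese FXR-K217R livers, 7.39, 7.40 and 6.63 in obese FXR-WT livers, 7.33, 7.33 and 8.15 in lean FXR-K217Q livers and 7.64 and 7.71 in lean FXR-WT livers. Obese FXR-WT arrays lay below both lean FXR-WT arrays, a change of -0.53 (SE 0.33, adjusted p = 0.527). The other changes were 0.04 (SE 0.30) for FXR-K217R and -0.07 (SE 0.33) for FXR-K217Q. A dimmer Steap4 probe, detected on 5 of 11 arrays, gave 0.32 (SE 0.23) in the obesity comparison, the opposite sign.

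Cp, the copper-carrying ferroxidase of plasma, had a lower mean with both mutants on its brightest probe, and neither difference passed. It read 14.36, 14.26 and 14.31 in obese FXR-K217R livers, 14.70, 14.60 and 14.52 in obese FXR-WT livers, 14.08, 14.07 and 14.79 in lean FXR-K217Q livers and 14.64 and 14.53 in lean FXR-WT livers. Every FXR-K217R array was below every obese FXR-WT array. The change was -0.29 (SE 0.18, 95% interval -0.68 to 0.10, adjusted p = 0.993) for FXR-K217R and -0.27 (SE 0.20, adjusted p = 0.84) for FXR-K217Q. Leaving out lean FXR-K217Q replicate 3 made the lean change -0.51 (adjusted p = 0.167). Cp ran against Hamp2 over the arrays (r = -0.81), and its most similar genes were Ufc1 (r = 0.92), the prolactin receptor gene Prlr (r = 0.91) and the estrogen receptor gene Esr1 (r = 0.91).

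The 5 Cp probes did not tell 1 story about FXR-K217Q or obesity. For FXR-K217Q, probes 3 and 4 by brightness gave 0.31 (SE 0.20) and 0.40 (SE 0.22), the opposite sign to the brightest. Probes 2 and 5 gave -0.32 (SE 0.36) and -0.30 (SE 0.39). For FXR-K217R, probes 2 to 5 gave changes from -0.43 to -0.06, and on each of them the groups overlapped. The brightest gave 0.02 (SE 0.20) between obese and lean FXR-WT livers. Probes 3 and 4 by brightness gave 0.64 (SE 0.20) and 0.71 (SE 0.22), with every obese array above both lean ones and an adjusted p of 0.193 each. Probes 2 and 5 gave -0.10 (SE 0.36) and -0.44 (SE 0.39). The brightest probe names transcript variant 2 and probe 4 names variant 1 in the deposited annotation, and whether the probes read different transcripts was not tested.

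Trf and Hpx, the plasma carriers of iron and heme, varied least of the 9. Trf lay between 14.93 and 15.08 on all 11 arrays and the brighter Hpx probe between 14.90 and 15.08. Their pooled SDs within groups, 0.05 and 0.06, stand at the 0.491 and 0.912 percentiles of all genes. In the 3 comparisons their changes lay between -0.04 and 0.08, with SEs of 0.10 to 0.11. Every lean FXR-K217Q array had more Trf signal than both lean FXR-WT arrays (15.08, 15.00 and 15.07 against 14.98 and 14.96), a change of 0.08 (SE 0.11, adjusted p = 0.927). Trf and Hpx bead intensities of 29767 to 37820 also sit close to the brightest probe on an array, and the part of that end of the scale in the steady readings was not tested.

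**Figure D4:**
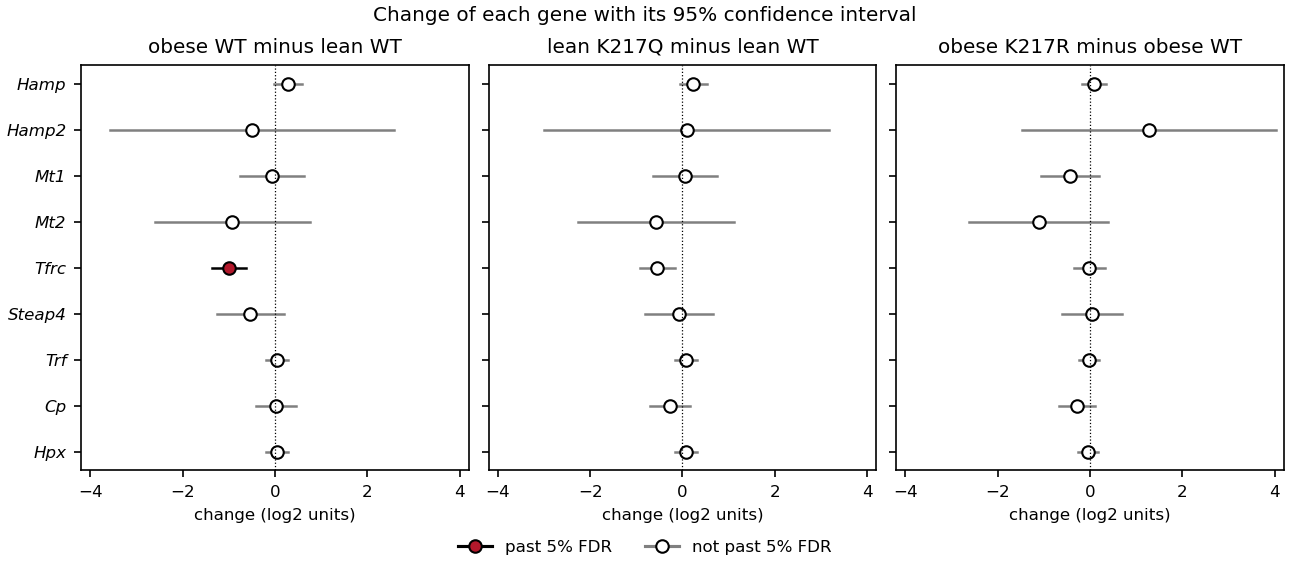
Change of each gene (x axes, log2 units) with its 95% confidence interval in 3 comparisons, from the fit over all 11 arrays; the filled point passed 5% FDR. Tfrc in obese against lean WT livers, at -1.0, is the 1 filled point, and the Hamp2 and Mt2 intervals are the widest.

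The counts for the 9 genes are set beside those for all genes, with no test of the difference. FXR-K217Q against FXR-WT in lean livers called 0 of them and 0% of all genes by limma, with 1 of 9 and 7.2% of all at an unadjusted p under 0.05. FXR-K217R against FXR-WT in obese livers called 0 of 9 and 0.0388% of all genes, with 0 of 9 and 4.41% at an unadjusted p under 0.05. Obese against lean FXR-WT livers called 1 of 9 and 1.2% of all, with 1 of 9 and 13.5% at an unadjusted p under 0.05. The median changes of the 9 genes were 0.06, -0.02 and -0.06, and those of all genes -0.003, -0.005 and -0.001. Groups did not overlap for 3 of 9 genes in the FXR-K217Q comparison (Mt1, Tfrc and Trf), against 22.3% of all genes. They did not overlap for 1 of 9 in the FXR-K217R comparison (Cp), against 9.85%, and for 4 of 9 in the obesity comparison (Hamp, Mt2, Tfrc and Steap4), against 33%. The difference of the mutant changes called 0 of 9 and 0% of all genes, with 1 of 9 and 728 of all at an unadjusted p under 0.05.

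A further iron transport and storage list, which does not include Tfrc, had 23 of 28 genes measured. It held 0 calls for FXR-K217Q, 1 lower for FXR-K217R and 1 higher for obesity, all on Ltf, lactoferrin, an iron-binding protein of neutrophil granules. Ltf fell to 6.22 ± 0.35 (SD, n = 3) in obese FXR-K217R livers, against 9.46 ± 0.54 (SD, n = 3) in obese FXR-WT livers, a change of -3.25 (SE 0.26, adjusted p = 0.00162) or 9.51-fold lower. It was 1.99 higher (SE 0.29, adjusted p = 0.0111) in obese than in lean FXR-WT livers, where it stood at 7.48 ± 0.20 (SD, n = 2). That obesity call was lost without lean FXR-WT replicate 1 (adjusted p = 0.0945) or replicate 2 (adjusted p = 0.0865), and with only these groups in the fit (adjusted p = 0.0605). In lean livers the FXR-K217Q change was -2.26 (SE 0.29, adjusted p = 0.149), and Ltf was detected on 1 of 3 FXR-K217Q arrays, so its level there was mostly not above background. Ltf is itself a neutrophil marker, and 13 of 18 such markers were measured. With FXR-K217R 6 of them fell (median of the 13, -2.29), and these are all 6 genes called in that comparison (0.0388% of all). With obesity, where 1.2% of all genes were called, 4 of the markers rose (median 1.37). The summed normalized intensity of the 13 was 19743 to 36798 in obese FXR-K217R livers and 39793 to 45812 in obese FXR-WT livers. It was 19439 to 41537 in lean FXR-K217Q livers and 36785 to 38003 in lean FXR-WT livers. Their mean log2 value, which weighs the brightest less, was 7.08 to 7.6, 9.16 to 9.39, 7.08 to 7.72 and 8.13 to 8.22 in the same order. By that mean the lean groups did not overlap. Cd177 was not detected on any obese FXR-K217R array, and Mpo and Ngp on no lean FXR-K217Q array. The part of neutrophil number was not tested.

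Genes that export and store iron did not pass in any comparison. Slc40a1 (ferroportin, the target of hepcidin) averaged 13.93 ± 0.17 (SD, n = 3) in obese FXR-WT livers, with changes of 0.04, 0.07 and 0.10 for FXR-K217Q, FXR-K217R and obesity. The ferritin chains Fth1 and Ftl1 changed by -0.07 to 0.10 in the same comparisons. At 14.87 to 15.04 and 14.57 to 14.90, they too lay at the bright end of the scale, where compression was not tested.

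The genes known to control hepcidin gave 0 calls in each comparison by limma, with 30 of 43 measured. At an unadjusted p under 0.05 stood 6 of the 30 for FXR-K217Q, 4 for FXR-K217R and 7 for obesity, against 7.2%, 4.41% and 13.5% of all genes. Id1, a target of BMP and SMAD signalling that often moves with hepcidin, read 8.43, 8.35 and 8.41 in obese FXR-WT livers and 7.53 and 7.01 in lean FXR-WT livers. That is a change of 1.13 (SE 0.28), with an adjusted p of 0.0879. Cebpa, a liver transcription factor, changed by -0.65 in the same comparison (SE 0.15, adjusted p = 0.0794). In lean livers FXR-K217Q gave 0.71 for Id1 (adjusted p = 0.601), 0.62 for Id2 and 0.61 for Id3 (adjusted p = 0.506 each). The hepcidin co-receptor gene Hfe2 and the protease gene Tmprss6 changed by -0.06 to 0.18. Bmp6, the iron-sensing ligand made by liver endothelium, was detected on 2 of 11 arrays and Smad7 on 0.

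Heme genes (20 of 23 measured) and zinc and copper genes (26 of 29) also gave 0 calls in each comparison by limma. An unadjusted p under 0.05 was reached by 2 of 20 heme genes with FXR-K217Q (7.2% of all genes) and 0 in the other comparisons. Among zinc and copper genes it was reached by 6 of 26 with obesity (13.5% of all genes) and 0 in the others. The heme genes with the smallest p gave 0.63 for Fech, which inserts iron into heme (SE 0.17, adjusted p = 0.456), and 0.72 for Cpox (adjusted p = 0.618), both with FXR-K217Q. Hmox1, which breaks heme down, changed by 0.51 with FXR-K217R (SE 0.24, adjusted p = 0.993) and by 0.44 with FXR-K217Q (SE 0.27, adjusted p = 0.783). The zinc importer gene Slc39a5 averaged 6.35 ± 0.16 (SD, n = 3) in obese FXR-WT livers and 5.38 ± 0.08 (SD, n = 2) in lean FXR-WT livers, a change of 0.97 (SE 0.22, adjusted p = 0.0661). Mtf1, the metal-sensing transcription factor of metallothionein genes, changed by 0.45 (SE 0.15, adjusted p = 0.216) with obesity, and Slc30a1, its zinc exporter target, by -0.25 (SE 0.30).

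Lists for the other known inputs to these genes were mostly without calls. The acute phase and IL-6 list (27 of 30 measured) gave 0 calls by limma, with medians of -0.18, -0.31 and -0.20 for FXR-K217Q, FXR-K217R and obesity and 2, 5 and 0 genes at an unadjusted p under 0.05 (7.2%, 4.41% and 13.5% of all genes). Saa1, an acute phase protein, changed by at most 0.22 in size, and at 14.65 to 15.20 it lay at the bright end of the scale like Trf and Hpx. The hypoxia list (18 of 22) gave 0 calls by limma, with 3, 0 and 5 genes at an unadjusted p under 0.05, beside the same shares of all genes. Of 19 glucocorticoid targets, all measured, 1 rose and 1 fell with obesity: Pdk4, a switch of fuel use, at 2.35 (SE 0.47, adjusted p = 0.0428), and Tat, tyrosine aminotransferase, at -1.82 (SE 0.33, adjusted p = 0.0288). Tat was detected on 1 of 3 obese FXR-WT arrays and on both lean FXR-WT arrays, so its level in the obese livers was mostly not above background. Neither call held throughout: Pdk4 was called in 11 of 23 alternative settings and Tat in 16 of 22, with adjusted p up to 0.397 and 0.365, both without lean FXR-WT replicate 2. The medians of that list were -0.35 for FXR-K217Q, -0.25 for FXR-K217R and -0.24 for obesity, against -0.003, -0.005 and -0.001 for all genes. In the same order 4, 0 and 4 of the 19 had an unadjusted p under 0.05, against 7.2%, 4.41% and 13.5% of all genes. Obesity called 1.2% of all genes.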

How the data were processed

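Liver RNA was measured on 11 Illumina BeadChip arrays. Per the file headers, the deposited table holds the mean intensity of each probe on each array with its standard error, the count of beads, and a detection p-value. The authors also deposited normalized log2 values. The submitters' processing notes name limma 3.12.3 without settings. The authors' log2 values differ from those computed here by 0.0271 at most. The sources used here name no genome build for the probes.

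Here, limma 3.58.1 (R 4.3.3) was used for background correction and quantile normalization of the intensities by its neqc function, with an offset of 16 and the detection p-values standing in for control probes. Probes detected at p under 0.05 on at least 2 arrays were kept (21485), and the brightest probe stood for each symbol (15469 genes). One linear model per gene (lmFit, eBayes) was fitted over all 11 arrays with 4 group means. Tests are two-sided and adjusted by Benjamini-Hochberg within each comparison at 5% FDR. Probe-level values were adjusted over the 21485 probes.

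The 9 genes and the pathway and marker lists were chosen with earlier results of these data known. From each pathway list the text names called genes (up to 4 by size) or up to 2 with the smallest p. It also names a set of iron, zinc and acute phase genes, and for each of the 9 the 3 genes with the highest r. Dbp and Arntl are exceptions to this rule, picked with their values in view. Not every undetected marker gene is named. Labels name no chip or scan batch, and the number of arrays limits precision. Alternatives changed background correction, scaling, filter, probe choice, model, and arrays used.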

Additional observations from a re-analysis of the deposited data

How the results depend on the processing

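There were 23 alternative settings, of which 22 applied to the difference of the mutant changes. Of 36 pairs of a gene and a comparison, 23 never took the opposite sign, where a change that rounded to 0 did not count as opposite. None of the 9 genes was called except Tfrc in obese against lean FXR-WT livers. That call held in 18 of 23 settings. It was lost with only the compared groups in the fit (-1.0, adjusted p = 0.0953, 0 of the 9 genes called, 110 genes in all) and with the replicate number as a block (-1.02, adjusted p = 0.0538, 0 of the 9 called). Over the leave-one-out fits Tfrc ranged from -1.14 to -0.87, with 0 to 1 of the 9 called. Deviations of same-numbered samples from their group means correlated at -0.39 to 0.23. Samples with different numbers were not compared in this way, so these values cannot decide whether the numbers pair the samples. The block gave 3 called genes for FXR-K217R and 102 for obesity, and moved Cp to -0.04 for obesity and 0.04 for the difference of the mutant changes.

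Counts of called genes moved further. FXR-K217Q gave 1 with a trended robust fit, 2 without both arrays that stood apart (a setting chosen after seeing the data) and 0 to 1 leaving out single arrays. FXR-K217R gave 2 with probes detected on all arrays, 2 with only the compared groups and 3 to 10 leaving out single arrays (10 without lean FXR-K217Q replicate 3, 3 without obese FXR-K217R replicate 1). Obesity gave 514 with array weights, 467 without both arrays that stood apart and 36 to 283 leaving out single arrays (36 without lean FXR-WT replicate 2). The obesity calls of Pdk4, Tat and Ltf held in 11 of 23, 16 of 22 and 19 of 22 settings. The difference of the mutant changes gave 1 with an offset of 50 and 1 with a trended robust fit.

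Values whose sign turned were all uncalled. With the mean of probes Steap4 was 0.08 for FXR-K217Q and -0.03 for the difference, and Tfrc was 0.03 for FXR-K217R. Array weights gave -0.18 for Hamp2 and 0.13 for Cp in the difference. Without both arrays that stood apart, obesity gave 0.59 for Hamp2 and -0.03 for Cp, and the difference gave -1.47 for Hamp2, 0.22 for Mt2 and 0.26 for Cp. Leaving out single arrays, FXR-K217Q ranged from -0.73 to 1.68 for Hamp2 and -0.34 to 0.07 for Steap4. FXR-K217R ranged from -0.14 to 0.13 for Tfrc, -0.22 to 0.19 for Steap4 and -0.04 to 0.02 for Trf. Obesity ranged from -1.28 to 0.59 for Hamp2, -0.13 to 0.02 for Mt1, -0.04 to 0.08 for Cp and -0.03 to 0.11 for Hpx. The difference ranged from -0.39 to 2.02 for Hamp2, -1.27 to 0.25 for Mt2, -0.15 to 0.38 for Steap4 and -0.14 to 0.21 for Cp. The cause was not tested, beyond the fewer arrays of these fits. Group sizes of 2 and 3 limit all comparisons, and a fit that leaves 1 lean FXR-WT array assumes it varies like the other groups.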
